A study of Homo sapiens with 4 samples.

Results

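The genes described here are 35 of the 61471 gene names counted: the transcription factor ATF4, its partners and regulators (10 genes), enzymes that make serine, glycine and other amino acids (12 genes), amino acid transporters (9 genes) and tRNA synthetases (4 genes). They were chosen by symbol from knowledge of the pathway, with earlier results of these data known, so the list is not independent of the data. Of the 35 genes, 33 had enough counts to be tested. The data come from 4 RNA-seq libraries of MDA-MB-231, a cultured human breast cancer line of the triple-negative type. EGFP negative cells (n = 2) are labelled as having increased extravasation (tumour cells leaving a vessel) and EGFP positive cells (n = 2) as not having it. Both groups carry the genotype label WT and the same transfection label, H2B-EGFP, CMV-RFP, so the reporter constructs are named for the controls too. EGFP status and extravasation status change together and cannot be told apart, and the labels give the ploidy of neither group. Whether replicate libraries stem from independent cultures is not stated, so each p-value reflects only how far these libraries differ, and part of that may be technical.

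ATF4 is the main effector of the integrated stress response. Kinases that sense lack of amino acids, unfolded protein, double-stranded RNA or lack of haem phosphorylate the translation factor eIF2, most protein synthesis slows, and ATF4 mRNA is then translated more. ATF4 pairs with C/EBP proteins on composite DNA elements and drives genes for amino acid synthesis, import and charging of tRNA, so that its own mRNA level is only one of the layers at which it is controlled. In breast cancer the pathway is known above all for serine synthesis from the glycolytic intermediate 3-phosphoglycerate, through PHGDH, PSAT1 and PSPH.

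Many of these genes carry the core of the composite element near their start. RefSeq promoter windows (GRCh38.p14, from 250 bases before to 50 bases after a gene's start) were at hand for 29 of the 35, with several windows for some genes. The core TGATGNAA, read on both strands, was in a window of 11 of the 29 (37.9%), against 4.46% of 27305 genes with a window. By window rather than by gene the shares were 21.2% of 52 windows and 3.62% of 35116. The 11 were CEBPG, CHAC1, ASNS, GOT1, SLC3A2, SLC7A1, SLC38A1, SLC1A4, SLC1A5, AARS1 and GARS1. Of the members that passed the test described further on, SLC7A1 and SLC1A4 held the core. PPP1R15A, PHGDH, PSAT1, SLC7A5 and SLC38A2 had windows without it, and SHMT2 had no window. The members were chosen as genes of the ATF4 pathway, so a share above that of all genes describes the list and is no test of it. A match is a description of letters and not a measured binding site. The stretches below show the match, in capitals, for the regulators CEBPG and CHAC1 and for the transporters SLC7A1, SLC1A4, SLC38A1 and SLC3A2. Each is given 5′ to 3′ on the gene's own strand, at chr19:33374049-33374100 (plus), chr15:40953240-40953291 (plus), chr13:29595652-29595703 (minus), chr2:64989370-64989421 (plus), chr12:46266491-46266542 (minus) and chr11:62881714-62881748 (plus), in this order.
CEBPG: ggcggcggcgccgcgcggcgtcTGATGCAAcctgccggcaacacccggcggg
CHAC1: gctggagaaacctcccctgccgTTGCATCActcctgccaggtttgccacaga
SLC7A1: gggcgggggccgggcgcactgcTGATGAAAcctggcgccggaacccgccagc
SLC1A4: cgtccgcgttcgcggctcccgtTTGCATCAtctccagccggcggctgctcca
SLC38A1: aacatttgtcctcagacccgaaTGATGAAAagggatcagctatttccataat
SLC3A2: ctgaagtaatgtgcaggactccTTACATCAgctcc

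The libraries held 12635576 and 11620076 counts in EGFP negative cells and 11620005 and 11445076 in EGFP positive cells. CPM below means counts scaled to a common library size by TMM, and 3 counts, the floor used for a gene at 0, were 0.241 to 0.26 CPM. The line's own markers were as its label says: VIM, KRT8, KRT18, CD44 and EGFR had at least 4398 counts in every library, and ESR1 and PGR, the estrogen and progesterone receptors, had 0 to 2. CDH1 had 1 to 3 counts and EPCAM 80 to 153. Their levels were not all alike between the groups: 4 of the 7 tested line markers (57.1%) were called, against 18.9% of all genes. In EGFP negative cells VIM was higher (log2 fold change 0.47), and CD44 (-0.43), EGFR (-0.33) and EPCAM (-0.93, adjusted p = 0.0021) were lower. ERBB2 was detected at 97.1 CPM in EGFP negative and 81.1 CPM in EGFP positive cells. Of 10 markers of leukocytes, endothelium and stroma, CD3E, CDH5 and DCN had 0 counts in every library and PTPRC had 2 to 6. PECAM1 (3.41 CPM in EGFP negative and 0.78 CPM in EGFP positive cells) and PDGFRB (5.16 CPM in EGFP negative and 2.51 CPM in EGFP positive cells) passed the test. COL1A1, the most abundant of the 10, was at 18.1 CPM in EGFP negative and 22.4 CPM in EGFP positive cells. ACTA2 was at 2.33 CPM in EGFP negative and 1.6 CPM in EGFP positive cells, and neither passed. The 10 markers together summed to 25.3 to 34 CPM in EGFP negative and 25.8 to 30 CPM in EGFP positive libraries. That sum mostly reflects COL1A1 and does not show the change of each marker. The part of such cells in the results below was not tested. In bulk RNA a lower level in each cell and fewer cells with the transcript cannot be told apart.

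ATF4 mRNA did not differ detectably between the groups, while a few of the genes around it differed by modest amounts. In EGFP negative cells 3 of the 33 tested members were higher (PSAT1, SHMT2 and SLC38A2) and 5 lower (PPP1R15A, PHGDH, SLC7A5, SLC7A1 and SLC1A4). The members called made up 24.2% of those tested, 9.09% higher and 15.2% lower. Over all 16413 genes tested 18.9% were called, 9.4% higher and 9.46% lower, so the share called higher was close to the background and the share called lower above it, by a margin that was not tested. No member passed the test with a change of at least 2-fold, and 4.25% of all genes did. The median log2 fold change was -0.06 over the members and -0.00 over all genes tested, and the median size of the change, sign aside, was 0.21 over the members and 0.22 over all genes. Members were measured more precisely than most genes, with a median standard error of 0.09 against 0.14. The groups did not overlap for 22 of the 33 members (66.7%), where this held for 57.4% of all genes. The calls depended on which library was left out, and all called members kept their direction. Over all genes tested, too, more were called without an EGFP negative library and fewer without an EGFP positive one. With 1 library left in a group, the spread came from the other pair alone. Leaving out EGFP negative library 1 gave 5 members higher and 9 lower, and leaving out EGFP negative library 2 gave 4 higher and 8 lower. Leaving out EGFP positive library 1 gave 0 higher and 2 lower, and leaving out EGFP positive library 2 gave 0 higher and 3 lower.

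**Figure D1:**
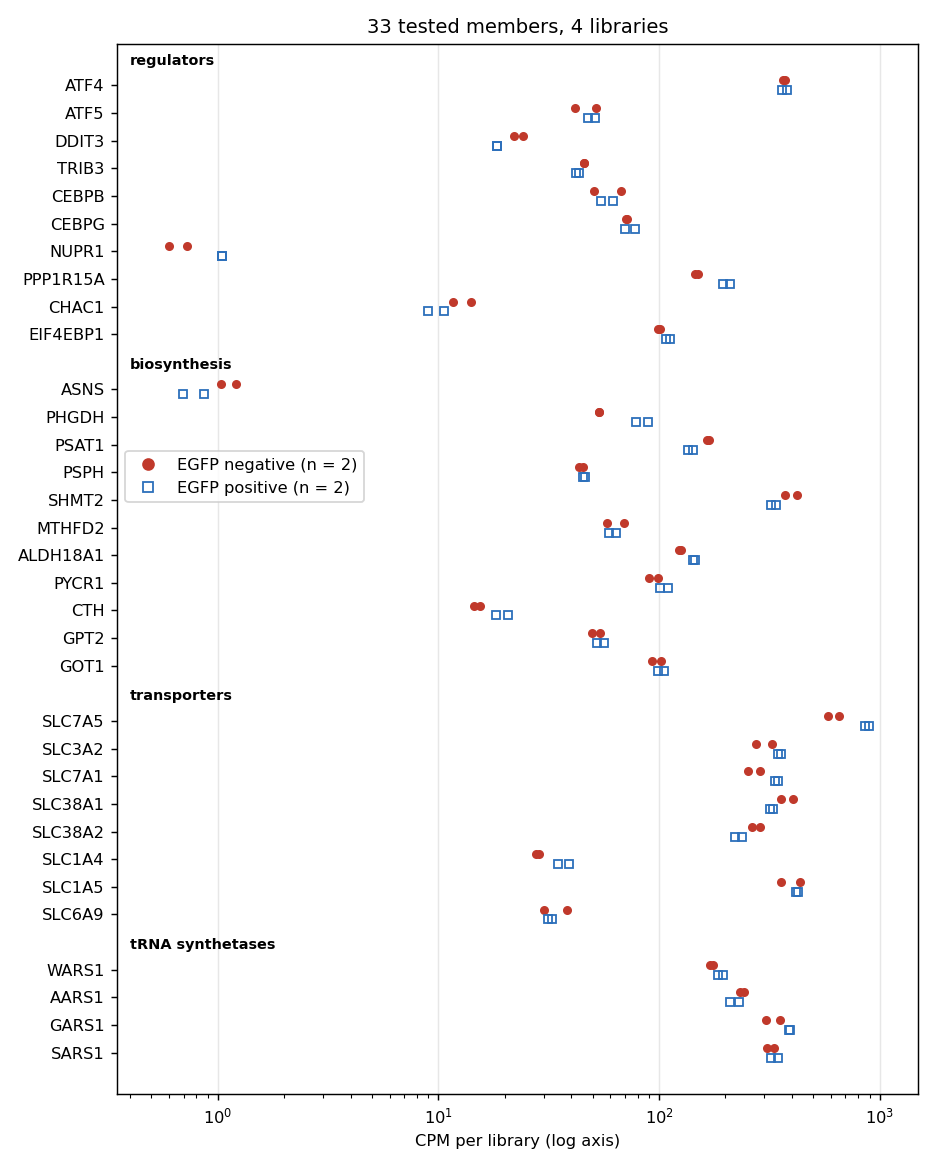
Level of each tested member in CPM on a log axis, by role, with EGFP negative libraries as filled circles and EGFP positive libraries as open squares (n = 2 each). The groups do not overlap for 22 of the 33 members, PHGDH, SLC7A5 and PPP1R15A among them, and they overlap for ATF4 (365 to 372 CPM in EGFP negative and 360 to 379 CPM in EGFP positive libraries).

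Among the regulators the clearest difference was in PPP1R15A (GADD34). It is a regulatory subunit of the phosphatase that dephosphorylates eIF2 and so helps to end the stress response. ATF4 itself (chromosome 22, 39519695 to 39522683, plus strand, GRCh38) had 4626 and 4263 counts in EGFP negative libraries and 4382 and 4150 in EGFP positive ones, or 372 and 365 CPM against 379 and 360 CPM. The EGFP negative values lie inside the range of the EGFP positive ones. The log2 fold change was -0.00 ± 0.08 (SE; adjusted p = 0.98), with a 95% interval from 0.89-fold to 1.12-fold. Processed copies of ATF4, mostly ATF4P3, held 411 and 417 counts in EGFP negative libraries and 463 and 446 in EGFP positive ones, and adding them left the log2 ratio of the means at -0.02. PPP1R15A (chromosome 19, 48872212 to 48876059, plus strand) had 1802 and 1748 counts in EGFP negative libraries and 2423 and 2259 in EGFP positive ones, which is 145 and 150 CPM against 210 and 196 CPM. Both EGFP negative libraries lay below both EGFP positive ones. PPP1R15A fell by 0.46 on the log2 scale (SE 0.08, adjusted p = 0.0013), and per length its level was 0.296 and 0.312 of that of ATF4 in EGFP negative libraries and 0.421 and 0.414 in EGFP positive ones. The call was lost without EGFP positive library 1 (adjusted p = 0.066; 2.9e-09 to 0.066 over the 11 alternatives).

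The other 8 regulators did not pass. EIF4EBP1, the repressor of cap-dependent translation, had 1261 and 1150 counts in EGFP negative libraries and 1237 and 1292 in EGFP positive ones (log2 fold change -0.13, adjusted p = 0.33). CEBPG, a C/EBP partner of ATF4, had 882 and 837 counts in EGFP negative libraries and 809 and 897 in EGFP positive ones, with overlapping groups (-0.05, adjusted p = 0.77). DDIT3 (CHOP), the bZIP factor linked to cell death under prolonged stress, was at 21.9 and 24.2 CPM in EGFP negative libraries and 18.5 and 18.4 CPM in EGFP positive ones, and its log2 fold change was 0.32 ± 0.13 (SE; adjusted p = 0.12, 0.04 without EGFP negative library 1, and 0.04 to 0.47 over the alternatives). CHAC1, which breaks down glutathione, was at 14.1 and 11.6 CPM in EGFP negative libraries and 10.6 and 8.94 CPM in EGFP positive ones (0.40 ± 0.18, SE; adjusted p = 0.15, 0.017 without EGFP negative library 2, and 0.017 to 0.63 over the alternatives). For both genes the groups did not overlap, but the difference did not pass in the comparison of all libraries. DDIT3 shares 13% of its exon bases with other genes, MARS1 among them, and the counting took no account of strand. TRIB3, a pseudokinase that restrains ATF4, had a log2 fold change of 0.10 (adjusted p = 0.58), and its 95% interval ran from 0.92-fold to 1.25-fold. The bZIP factors ATF5 and CEBPB were at -0.08 and 0.02, with overlapping groups. NUPR1, a stress-induced chromatin protein, had only 9 and 7 counts in EGFP negative libraries and 12 and 12 in EGFP positive ones, so that its interval spans 0.30-fold to 1.35-fold.

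The first enzyme of the serine pathway was lower in EGFP negative cells and the second was higher. PHGDH, the first enzyme, which oxidises 3-phosphoglycerate (chromosome 1, 119648411 to 119744215, plus strand), had 662 and 621 counts in EGFP negative libraries and 1034 and 908 in EGFP positive ones. At 53.2 and 53.2 CPM against 89.5 and 78.8 CPM, the EGFP negative libraries lay well below both EGFP positive libraries. PHGDH fell by 0.66 on the log2 scale (SE 0.10, adjusted p = 3.4e-04), to 0.632 of the EGFP positive level, and it passed under all 11 alternatives tried, with log2 fold changes of -0.75 to -0.57 and adjusted p = 5.7e-12 to 0.011. PSAT1, the second enzyme, a transaminase (chromosome 9, 78297125 to 78330093, plus strand), had 2089 and 1921 counts in EGFP negative libraries and 1555 and 1633 in EGFP positive ones, or 168 and 165 CPM against 135 and 142 CPM. PSAT1 rose 1.2-fold (log2 fold change 0.27 ± 0.08, SE; adjusted p = 0.037). PSPH, the phosphatase of the last step, was at 45.1 and 43.5 CPM in EGFP negative libraries and 46.3 and 45 CPM in EGFP positive ones and did not pass (adjusted p = 0.83, 95% interval 0.83-fold to 1.13-fold). Per length, the ratio of PHGDH to PSAT1 within a library was 0.266 and 0.271 in EGFP negative cells and 0.558 and 0.467 in EGFP positive cells. PSAT1 transcripts exceeded those of PHGDH in every library, and by more in EGFP negative cells. The adjusted p of PSAT1 missed the threshold without EGFP positive library 1 (0.45) or library 2 (0.27), with DESeq2 (0.063) and with no filter on low counts (0.071); over all alternatives it was 7.4e-04 to 0.45. Processed copies of PSAT1 took 19.1 to 23.8% of the reads on the gene and its copies, and the log2 ratio of the means with them added was 0.23.

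Beyond serine, SHMT2, the mitochondrial enzyme that turns serine into glycine and a one-carbon unit (chromosome 12, 57229711 to 57234935, plus strand), was higher in EGFP negative cells. Its counts were 5239 and 4330 in EGFP negative libraries and 3923 and 3706 in EGFP positive ones, or 421 and 371 CPM against 339 and 322 CPM. The groups did not overlap, and the EGFP negative libraries differed from each other by more than the EGFP positive ones did. Of the exon bases of SHMT2, 9.32% are shared with other genes, NDUFA4L2 among them. SHMT2 rose 1.2-fold (log2 fold change 0.26 ± 0.08, SE; adjusted p = 0.042). SHMT2 lies on chromosome 12, as do SLC38A1, SLC38A2, DDIT3 and MARS1. Elsewhere on that chromosome many genes outside the pathway were also called higher, among them GAPDH, TUBA1B and CDK4, and fewer lower. The share of its genes called was not counted. What this means for the change of SHMT2 was not tested. The adjusted p of SHMT2 missed the threshold without EGFP positive library 1 (0.24) or library 2 (0.47), with DESeq2 (0.061) and with no filter (0.068), and ranged over 5.4e-07 to 0.47. MTHFD2, the next enzyme of the mitochondrial folate path, did not pass: it was at 57.8 and 69.3 CPM in EGFP negative libraries and 64.1 and 59.1 CPM in EGFP positive ones, with overlapping groups (log2 fold change 0.04, adjusted p = 0.83). Other genes, SLC4A5 among them, share 26.7% of the exon bases of MTHFD2. Its copies took 8.18 to 12.5% of the reads on MTHFD2 and the copies.

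The other measured enzymes did not pass. In proline synthesis, ALDH18A1 had 1535 and 1465 counts in EGFP negative libraries and 1636 and 1687 in EGFP positive ones (log2 fold change -0.21, adjusted p = 0.098). PYCR1, the reductase of its last step, had 1232 and 1053 counts in EGFP negative libraries and 1269 and 1167 in EGFP positive ones (-0.16, adjusted p = 0.28). CTH, which makes cysteine from cystathionine, was at 14.5 and 15.4 CPM in EGFP negative libraries and 20.7 and 18.3 CPM in EGFP positive ones (-0.38 ± 0.15, SE; adjusted p = 0.086, 0.043 without EGFP negative library 2, and 0.031 to 0.55 over the alternatives). ALDH18A1 also passed without EGFP negative library 1 (adjusted p = 0.039) or library 2 (0.023), in a range of 0.023 to 0.6. The transaminases GPT2 and GOT1 had overlapping groups and log2 fold changes of -0.07 and -0.06. CBS, which precedes CTH in cysteine synthesis, had 0 counts in every library. It has a near-identical copy on the same chromosome, CBSL in GENCODE 29, which is not analysed here, so that the 0 is uncertain. ASNS, which makes asparagine and is a classical ATF4 target, had only 15 and 12 counts in EGFP negative libraries and 8 and 10 in EGFP positive ones (adjusted p = 0.53). Of its exon bases 82.4% are shared with the overlapping gene ENSG00000284707, and the counting command names no option for reads that fit several genes, which featureCounts by default leaves uncounted. The ASNS counts therefore cannot be read as the level of its transcript.

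**Figure D2:**
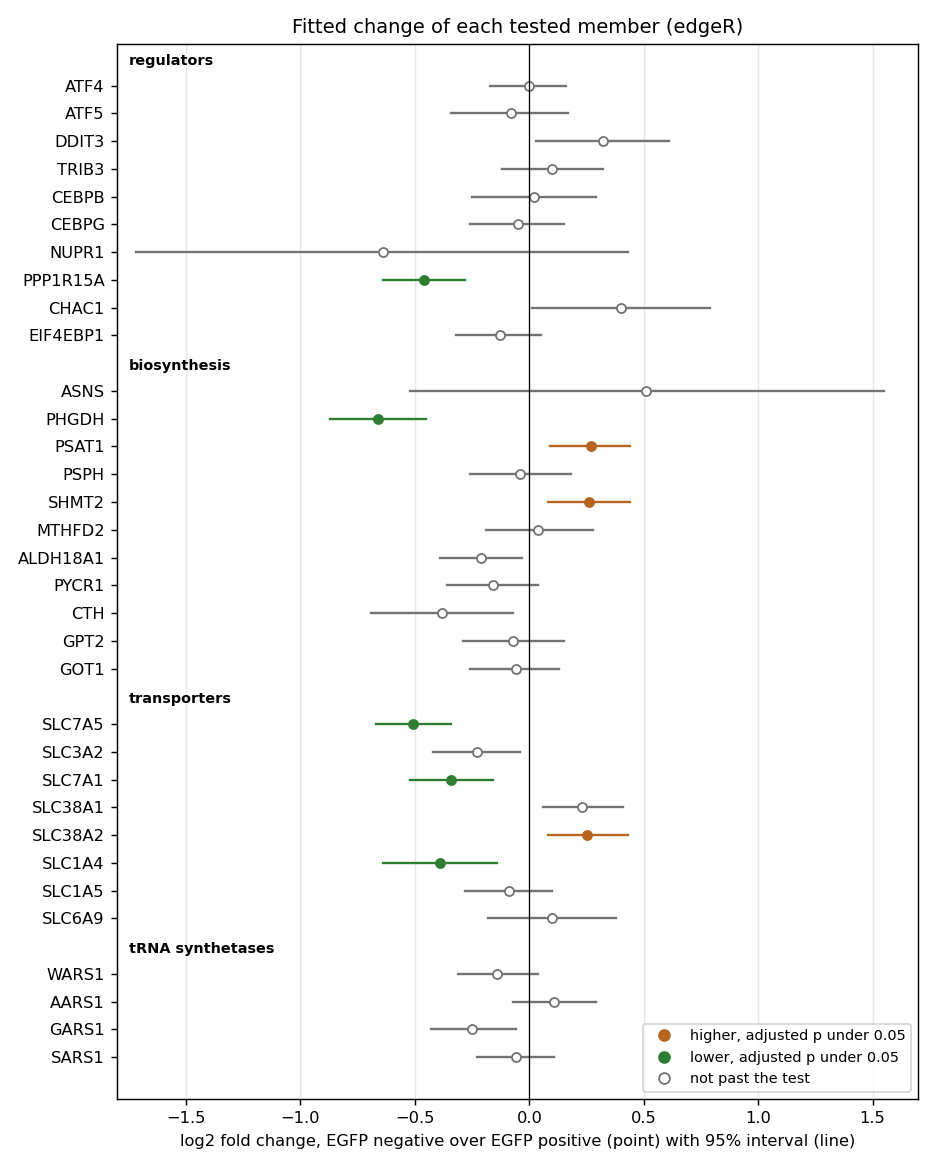
Log2 fold change of each tested member, EGFP negative over EGFP positive, with its 95% interval from the edgeR fit (n = 2 per group). Filled points passed at adjusted p under 0.05: 3 lie to the right (PSAT1, SHMT2, SLC38A2) and 5 to the left (PPP1R15A, PHGDH, SLC7A5, SLC7A1, SLC1A4), and the wide lines are the low-count genes NUPR1 and ASNS.

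Transporters had 1 higher (12.5%) and 3 lower (37.5%) of 8 tested, against 9.4% higher and 9.46% lower over all genes, and the margin was not tested. SLC7A5 (LAT1), the exchanger that brings in leucine and other large neutral amino acids (chromosome 16, 87830023 to 87869507, minus strand), was the most abundant member in CPM. It had 8115 and 6787 counts in EGFP negative libraries and 10320 and 9889 in EGFP positive ones, or 652 and 582 CPM against 893 and 858 CPM. The EGFP negative libraries lay below both EGFP positive ones by more than either pair differed within itself. SLC7A5 fell by 0.51 on the log2 scale (SE 0.08, adjusted p = 4.2e-04), to 0.704 of the EGFP positive level, and passed under all 11 alternatives, with log2 fold changes of -0.59 to -0.42 and adjusted p = 2.0e-19 to 0.015. SLC3A2 (4F2hc, CD98), the heavy chain that SLC7A5 needs to reach the membrane, was at 324 and 274 CPM in EGFP negative libraries and 356 and 348 CPM in EGFP positive ones. Its groups did not overlap, but it did not pass (log2 fold change -0.23 ± 0.09, SE; adjusted p = 0.084, 1.3e-06 without EGFP negative library 1, and 1.3e-06 to 0.46 over the alternatives). Per length, SLC7A5 stood to SLC3A2 as 1.15 and 1.21 in EGFP negative libraries and as 1.44 and 1.41 in EGFP positive ones.

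**Figure D3:**
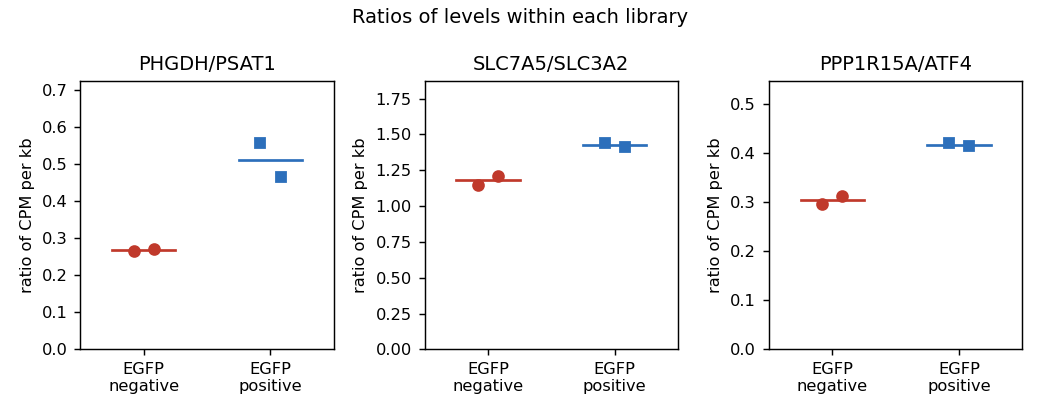
Ratios of length-scaled levels (CPM per kb of exon) within each library, with EGFP negative libraries on the left and EGFP positive ones on the right; points are libraries and lines their means (n = 2). All 3 ratios are lower in both EGFP negative libraries: PHGDH to PSAT1 averages 0.269 in EGFP negative against 0.512 in EGFP positive libraries, SLC7A5 to SLC3A2 1.18 in EGFP negative against 1.43 in EGFP positive, and PPP1R15A to ATF4 0.304 in EGFP negative against 0.418 in EGFP positive.

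SLC7A1 (CAT1), the main importer of arginine and lysine (chromosome 13, 29509414 to 29595688, minus strand), had 3568 and 2943 counts in EGFP negative libraries and 3866 and 3984 in EGFP positive ones, or 287 and 252 CPM against 334 and 346 CPM. SLC7A1 fell by 0.34 on the log2 scale (SE 0.08, adjusted p = 0.012). SLC1A4 (ASCT1), an exchanger of serine, alanine and other small neutral amino acids (chromosome 2, 64988490 to 65023865, plus strand), had 346 and 335 counts in EGFP negative libraries and 453 and 403 in EGFP positive ones, which is 27.8 and 28.7 CPM against 39.2 and 35 CPM. SLC1A4 fell by 0.39 (SE 0.12, adjusted p = 0.03). For both genes the groups lay apart. Both calls were lost without EGFP positive library 1 (adjusted p = 0.12 for SLC7A1 and 0.38 for SLC1A4) and without EGFP positive library 2 (0.22 and 0.099). SLC1A4 also missed the threshold with DESeq2 (adjusted p = 0.1) and with no filter on low counts (0.065). Over the alternatives the adjusted p was 4.4e-09 to 0.22 for SLC7A1 and 0.0029 to 0.38 for SLC1A4.

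Of the sodium-coupled neutral amino acid transporters, which bring in glutamine and small neutral amino acids, SLC38A2 was higher in EGFP negative cells and SLC38A1 did not pass. Both lie on chromosome 12, where many genes outside the pathway were called higher too, and the part this has in their changes was not tested. SLC38A2 (SNAT2; chromosome 12, 46358188 to 46372773, minus strand), known to be induced when amino acids are scarce, had 3270 and 3332 counts in EGFP negative libraries and 2570 and 2732 in EGFP positive ones, or 263 and 286 CPM against 222 and 237 CPM. SLC38A2 rose 1.19-fold (log2 fold change 0.25 ± 0.08, SE; adjusted p = 0.044). Its neighbour SLC38A1 (SNAT1) had 4446 and 4701 counts in EGFP negative libraries and 3686 and 3771 in EGFP positive ones, again without overlap, and missed the threshold (0.23 ± 0.08, SE; adjusted p = 0.061, 0.046 with upper quartile scaling, 1.4e-05 without EGFP negative library 1, and 1.4e-05 to 0.47 over the alternatives). The adjusted p of SLC38A2 missed the threshold without EGFP positive library 1 (0.49) or library 2 (0.26), with DESeq2 (0.063) and with no filter (0.074), and ranged over 5.2e-05 to 0.49. SLC1A5 (ASCT2), the glutamine exchanger, had 5400 and 4193 counts in EGFP negative libraries and 4933 and 4807 in EGFP positive ones, with overlapping groups (-0.09, adjusted p = 0.56, 95% interval 0.82-fold to 1.07-fold). SLC6A9 (GLYT1), a glycine importer, overlapped between groups too (0.10, adjusted p = 0.68). SLC7A8 (LAT2), the other neutral exchanger that pairs with SLC3A2, had 0 counts in all 4 libraries. Counting error alone allows 0.241 to 0.26 CPM, but whether its reads could all be counted for it is not known, so the 0 is uncertain as a level.

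None of the 4 tRNA synthetases, the enzymes that load amino acids onto tRNA, passed. GARS1, for glycine, had 3790 and 4145 counts in EGFP negative libraries and 4556 and 4480 in EGFP positive ones, or 304 and 355 CPM against 394 and 389 CPM. Both EGFP negative libraries were lower, and the first of them by more (log2 fold change -0.25 ± 0.09, SE; adjusted p = 0.059, 1.8e-06 without EGFP negative library 2, and 1.8e-06 to 0.4 over the alternatives). SARS1, for serine, had 3854 and 3866 counts in EGFP negative libraries and 3984 and 3711 in EGFP positive ones (-0.06, adjusted p = 0.69). WARS1, for tryptophan, and AARS1, for alanine, were at -0.14 and 0.11 (adjusted p = 0.28 and 0.41). The 95% intervals of SARS1 and AARS1 ran from 0.85-fold to 1.08-fold and from 0.95-fold to 1.22-fold.

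Other genes of the pathway were taken from lists written by function, apart from the members and also with earlier results of these data known. Among the kinases and other controllers of eIF2, 0 of 17 were higher and 3 (17.6%) lower, against 9.46% lower over all genes. This count depended on the processing: it was 0 with DESeq2, with no filter on low counts and without EGFP positive library 1 or library 2, but 6 without EGFP negative library 2 and 7 with the replicate number as a block. EIF2AK4 (GCN2), the kinase that senses uncharged tRNA, was at 114 and 120 CPM in EGFP negative libraries and 139 and 143 CPM in EGFP positive ones (log2 fold change -0.27, adjusted p = 0.04). EIF2B3 and EIF2B4, subunits of the exchange factor that recharges eIF2, fell by 0.37 and 0.32 (adjusted p = 0.032 and 0.037). The kinases EIF2AK1, EIF2AK2 and EIF2AK3 were not called, at -0.18, -0.04 and -0.24. Among other bZIP partners and targets of ATF4, 2 of 18 tested (11.1%) were higher, close to the 9.4% over all genes, and 0 lower. DDIT4 (REDD1), an inhibitor of mTORC1 that hypoxia and glucocorticoids also induce, rose by 1.60 ± 0.09 on the log2 scale (SE), and SQSTM1, an autophagy receptor, by 0.32 (adjusted p = 0.015). The further targets SESN2, XPOT and VLDLR were at -0.11, 0.25 and -0.26 and did not pass. ATF3 had the lowest log2 fold change of the list and just missed the threshold (-0.69 ± 0.23, SE; adjusted p = 0.052). Its CPM was 3.94 and 4.63 in EGFP negative libraries and 7.09 and 6.68 in EGFP positive ones. Of the 18 genes, 13 had a positive sign and 5 a negative one. With the block, 2 were called lower. The count called higher was 1 without EGFP positive library 1 or library 2, 6 without EGFP negative library 1, 4 without EGFP negative library 2 and 5 with the block.

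Among the other enzymes of folate and glycine metabolism 2 of 13 tested (15.4%) were higher and 0 lower, against 9.4% higher and 9.46% lower over all genes. TYMS, which makes thymidylate, rose by 0.28 on the log2 scale (adjusted p = 0.025). Of this list 0 were higher without EGFP positive library 1 or library 2, 1 with DESeq2 and with no filter, and 4 without EGFP negative library 2 and with the block. Among other enzymes of amino acid metabolism 1 of 19 (5.26%) was higher and 2 (10.5%) lower. GLUD1, which turns glutamate into 2-oxoglutarate, rose by 0.49 (SE 0.08, adjusted p = 5.9e-04). ODC1, which starts polyamine synthesis, fell by 0.30 (adjusted p = 0.016). The count called lower was 1 with DESeq2, with no filter and with upper quartile scaling, and 0 without EGFP positive library 1 or library 2. Other amino acid transporters had 1 higher (5.26%) and 4 lower (21.1%) of 19. SLC6A6, the taurine transporter, was at 138 and 131 CPM in EGFP negative libraries and 83 and 92.4 CPM in EGFP positive ones (log2 fold change 0.62, adjusted p = 3.2e-04). The lower ones were SLC7A6 (-0.77, adjusted p = 0.0023), SLC36A4 (-0.46, 0.0059), SLC7A2 (-0.46, 0.0085) and the mitochondrial SLC25A22 (-0.33, 0.049). Without EGFP positive library 2 the count called lower was 1. SLC7A2, like SLC7A1, carries cationic amino acids, and SLC7A6 is a further light chain of SLC3A2.

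Other cytoplasmic tRNA synthetases had 1 higher (6.25%) and 4 lower (25%) of 16, against 9.4% higher and 9.46% lower over all genes. FARSA, the catalytic subunit for phenylalanine, was at 242 and 219 CPM in EGFP negative libraries and 356 and 328 CPM in EGFP positive ones, and fell by 0.57 on the log2 scale (adjusted p = 2.9e-04). NARS1, VARS1 and YARS1 fell by 0.42, 0.42 and 0.32 (adjusted p = 0.0025, 0.0093 and 0.013). MARS1, which overlaps DDIT3, rose by 0.34 (adjusted p = 0.0088). Leaving out EGFP negative library 1 gave 3 higher and 4 lower. Leaving out EGFP positive library 1 gave 0 higher and 1 lower, and leaving out EGFP positive library 2 gave 0 higher and 2 lower. Mitochondrial synthetases had 0 higher and 2 lower of 16, AARS2 and EARS2, which fell by 0.40 and 0.41 (adjusted p = 0.025 and 0.029). The count called lower was 0 with DESeq2, with no filter and without EGFP positive library 1, 1 without EGFP positive library 2 and 5 with the block. Set beside the background of 9.4% higher and 9.46% lower, the share called lower ran from 0% of the tested genes in the lists of bZIP partners and targets and of folate and glycine enzymes, through 10.5% in other amino acid enzymes, 12.5% in mitochondrial synthetases, 17.6% in eIF2 control and 21.1% in other transporters, to 25% in other cytoplasmic synthetases. The share called higher ran from 0% in eIF2 control and mitochondrial synthetases, through 5.26% in other amino acid enzymes and other transporters, to 15.4% in folate and glycine enzymes. Other cytoplasmic synthetases stood at 6.25% and bZIP partners and targets at 11.1%. Whether any list stands apart from all genes was not tested.

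**Figure D4:**
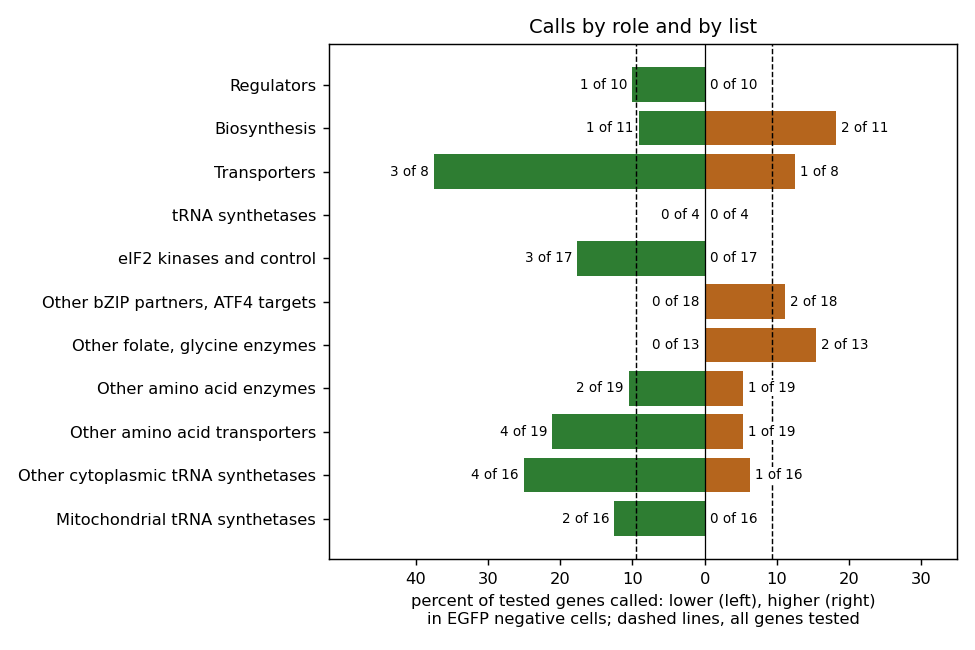
Percent of tested genes called higher (right) and lower (left) in EGFP negative cells for the 4 roles of the members, at the top, and 7 further lists of the pathway, with counts beside the bars. Dashed lines mark the shares over all genes tested, 9.4% higher and 9.46% lower; the transporter bar reaches furthest to the left, with 3 of 8.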

How the data were processed

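PolyA-selected, stranded libraries were sequenced, per the labels' protocols. The authors deposited raw counts per gene name, made per the file headers with featureCounts 2.0.1 over GENCODE 46 basic exons, in paired mode with no strand option. The deposited exon length (bp) gave CPM per kb. The aligner is not given in the sources used here; the submitters' processing notes name Subread, GRCh37 and hg19. Of 31 members found by name in GENCODE 29 (GRCh38), 29 lay within 5000 bp of their place there.

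Genes kept by filterByExpr (minimum count 10, minimum total 15) numbered 16413. They were tested with edgeR 4.0.16 in R 4.3.3 (two-sided quasi-likelihood test, group as the sole factor, 4 libraries, Benjamini-Hochberg at 0.05 over all genes). TMM factors were 0.987 to 1.01. The smallest exact permutation p for 2 against 2 is 0.33. SE is |log2 fold change| divided by the root of F. Floors cover counting error only. Replicates differed beyond sampling noise (chi-square per degree of freedom 6.65 in EGFP negative and 2.12 in EGFP positive libraries). The scripts were tested on simulated counts, with 200 of 16413 genes changed. Of 1.5-fold changes 46.3% were recovered, of 2-fold changes 82.1% and of 4-fold changes 93.9%. Smaller changes were not simulated.

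Members and lists were chosen with earlier results of these data known. Counts per library are given for ATF4, members past the test and the 2 most abundant others of each role; from further lists, up to 4 genes past the test with the smallest adjusted p. Other named genes and values were added after they were seen, and a few genes of the further lists are not reported here by name. Alternatives were RLE and upper quartile scaling, no filter, a stricter filter (1 CPM in 2 libraries, 100 counts in all), DESeq2 1.42.0, limma-voom (limma 3.58.1), the replicate number as a block and each library left out. Figures used matplotlib 3.10.9.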

Additional observations from a re-analysis of the deposited data

How the results depend on the processing

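Of 8 members called, PHGDH and SLC7A5 kept direction and call under all 11 alternatives; the other 6 kept direction and lost the call under at least 1. Genes called over the whole table were 997 lower with DESeq2 and 2407 lower with the replicate block, and leaving out a library gave 720 to 2477 higher and 715 to 2465 lower. Members called higher were 0 with no filter and with DESeq2, and 0 to 5 without one library; members called lower were 9 with the replicate block and 2 to 9 without one library. By role, without one library regulators had 0 to 1 higher and 0 to 1 lower, enzymes 0 to 2 higher and 1 to 3 lower, transporters 0 to 2 higher and 1 to 5 lower, and synthetases 0 to 1 lower. With no filter and with DESeq2, 0 enzymes and 0 transporters were higher; with upper quartile scaling 2 transporters were higher; with the replicate block 2 transporters were higher, 3 enzymes lower and 1 synthetase lower. The members' median log2 fold change was -0.12 to -0.02 without one library.

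Signs turned only for members near 0 that were not called. ATF4 was at 0.00 with RLE and with DESeq2 and 0.01 with upper quartile scaling. Without one library the log2 fold changes were ATF4 -0.04 to 0.03, ATF5 -0.26 to 0.08, CEBPB -0.20 to 0.22, CEBPG -0.13 to 0.03, MTHFD2 -0.08 to 0.17, SLC1A5 -0.23 to 0.05 and SLC6A9 -0.09 to 0.27. The cause of these shifts was not tested. No methods text stated a pairing of the libraries, so group was the sole factor. Same-numbered libraries deviated together only weakly (correlation 0.11 across genes, 2 pairs). With the replicate block 2297 genes were called higher and 2407 lower, against 1543 and 1552 without it. Whether the numbers pair the libraries is not settled by these values. With 1 library in an arm, its spread is assumed to be that of the other group. NUPR1 had at most 12 counts per library, so depth limits what can be said of it.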

Other observations

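SLC3A2 serves several light chains, and those in the lists were compared after their values were seen. In CPM per kb of exon, SLC7A5 averaged 134 in EGFP negative and 190 in EGFP positive cells. SLC7A11, the cystine importer, averaged 11.8 in EGFP negative and 13.4 in EGFP positive cells and did not pass (edgeR adjusted p = 0.2). SLC7A6 averaged 3.37 in EGFP negative and 5.77 in EGFP positive cells, and stood to SLC3A2 as 0.0322 and 0.0268 in EGFP negative libraries and 0.0439 and 0.0426 in EGFP positive ones. SLC7A7 averaged 0.439 in EGFP negative and 0.255 in EGFP positive cells and did not pass (edgeR adjusted p = 0.32).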
